A study of Homo sapiens with 8 samples.

Results

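Keratin genes were followed in BEAS-2B cells, a virus-immortalised human bronchial epithelial line, after exposure to house dust mite (HDM) extract, an airborne allergen mixture. The 10 genes were taken by symbol out of 26485 listed genes and comprised 4 keratins of simple epithelia (KRT7, KRT8, KRT18 and KRT19) and 6 keratins of stratified or stressed epithelia (KRT5, KRT6A, KRT13, KRT15, KRT16 and KRT17). All 10 symbols were present in every table, and 9 reached the level that was tested, with KRT13 below it. There were 4 groups: LY96 siRNA with HDM extract (3 libraries), control siRNA with HDM extract (3 libraries), LY96 siRNA with PBS (1 library) and control siRNA with PBS (1 library). LY96 encodes MD-2, which binds lipopolysaccharide together with the receptor TLR4. All cells carried an siRNA, were kept in BEGM medium, were moved to BEBM medium 24 h before stimulation, and were collected 24 h after it. Whether libraries of the same group came from separate cultures is not stated in the labels, and the spread behind the p-values may thus be technical only. The group sizes and the single PBS library of each siRNA limit every HDM comparison, since the test assumes that a PBS library varies as the HDM libraries do.

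Keratins form intermediate filaments only as pairs of a type I and a type II chain, which give epithelial cells their mechanical strength. KRT8 and KRT18 are the usual pair of simple epithelia, joined there by the type II keratin KRT7 and the type I keratin KRT19. KRT5 pairs with KRT14 in basal cells of stratified epithelia and of the airway, while KRT6A, KRT16 and KRT17 are induced when such epithelia are wounded or stressed. KRT15 marks basal cells, and KRT13 marks the upper layers of non-cornified stratified epithelia.

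LY96 was listed at 0 FPKM (fragments per kilobase of transcript and scaled by sequenced fragments) in all 8 libraries, so its depletion could not be checked from these values, and the LY96 siRNA groups are named by their label. FPKM totals ranged from 329777 to 340328, and read depth is unknown. Ribosomal RNA took 1.03% to 1.31% of the FPKM total in the LY96 siRNA HDM libraries, against 0.475% to 0.824% in the control siRNA HDM libraries, and 0.826% in the LY96 siRNA and 0.770% in the control siRNA PBS library. All 10 markers of epithelial cells had a mean of at least 1 FPKM. Of 7 secretory airway markers 6, SCGB1A1 and MUC5AC among them, were at 0 in every library, as were FOXJ1 and DNAI2 of 8 ciliated, PTPRC, CD3E and MS4A1 of 10 leukocyte, DCN and LUM of 8 fibroblast, PECAM1 and EMCN of 7 endothelial and IL33 of 9 basal airway markers. Of the ciliated markers 2 had a mean of at least 1 FPKM, CCDC78 the highest. The ciliated markers summed to 3.41 to 3.97 FPKM with LY96 siRNA and HDM and 4.11 to 4.56 FPKM with control siRNA and HDM. The PBS libraries were at 4.67 FPKM with LY96 siRNA and 4.8 FPKM with control siRNA. The summed fibroblast markers were at 17.1 to 19.4 FPKM with LY96 siRNA and HDM, 16 to 17.2 FPKM with control siRNA and HDM, 26.1 FPKM in the LY96 siRNA PBS library and 23.2 FPKM in the control siRNA PBS library, and PDGFRB was the highest of them. Leukocyte markers, CD74 the highest, summed to 28.2 to 32.1 FPKM with LY96 siRNA and HDM, 26.1 to 27.6 FPKM with control siRNA and HDM, 19 FPKM in the LY96 siRNA PBS library and 16.1 FPKM in the control siRNA PBS library. Their part in the keratin differences was not tested.

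The genes lie in 2 clusters, and several share sequence with close copies, which matters for how reads were divided among them. On GRCh38 in the GENCODE release 29 annotation, chromosome 12 holds the type II genes KRT6A (52487174 to 52493257), KRT5 (52514575 to 52520687), KRT7 (52232520 to 52252186) and KRT8 (52897187 to 52949954), together with the type I gene KRT18 (52948871 to 52952901). The other type I genes lie on chromosome 17, namely KRT13 (41500981 to 41505705), KRT15 (41513743 to 41522529), KRT19 (41523617 to 41528308), KRT16 (41609778 to 41615899) and KRT17 (41619441 to 41624842). The annotated spans of KRT8 (minus strand) and KRT18 (plus strand) overlap by 1084 bases. Whether reads were assigned by strand is not given in the sources used here, so reads of that stretch cannot be attributed to either gene with certainty. The share of each gene's annotated 50-base stretches that also occur, on either strand, in transcripts of other genes was highest for KRT6A (32.1%), KRT18 (24.5%), KRT16 (16.5%) and KRT8 (16.1%). It was 13.2% for KRT13, 9.02% for KRT17, 5.70% for KRT7, 2.17% for KRT5, 1.16% for KRT15 and 0.977% for KRT19. KRT6A shared mostly with KRT6C and KRT6B, KRT16 with KRT16P3 and KRT14, and KRT7 with its antisense gene KRT7-AS. KRT18 shared most with KRT8 (12.7% of its stretches), and KRT8 most with KRT18 (5.94%). The values of KRT6A, KRT8, KRT18 and KRT16 are therefore less certain than those of KRT5 and KRT19. Keratin pseudogenes listed beside them were low, the highest being KRT16P1 at a mean of 0.687 FPKM.

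The KRT6 coding sequences show how close such copies are. They have 1692 bases each and differ at 51 positions among the 3 genes (3.01%). The 60-base stretch of the coding sequence with the most differences, bases 663 to 722 counted from the start codon, is printed from the GENCODE transcripts. Within the coding sequence only reads over such differing positions tell the genes apart, and the untranslated parts were not compared here. Capitals mark the 9 positions at which the 3 genes are not all identical.
KRT6A: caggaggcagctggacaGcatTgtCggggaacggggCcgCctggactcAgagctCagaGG
KRT6B: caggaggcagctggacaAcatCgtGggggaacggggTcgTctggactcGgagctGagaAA
KRT6C: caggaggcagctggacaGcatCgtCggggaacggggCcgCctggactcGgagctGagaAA

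In these cells KRT17 was the most abundant of the 10 keratins, at a mean of 1246 FPKM over the 8 libraries (1161 to 1318). KRT5 followed at 415 FPKM, then KRT8 at 301, KRT6A at 221, KRT18 at 193, KRT7 at 187, KRT19 at 126 and KRT16 at 41.6. Ranges over libraries overlapped between each of these neighbours except KRT17 and KRT5 (332 to 447), and KRT19 (90.3 to 156) and KRT16 (33.5 to 53.1). KRT15 averaged 1.80 FPKM and KRT13 0.342 FPKM. Simple, basal and stress keratins were all present in every group, and the 10 genes together held 0.742% to 0.868% of the FPKM total.

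**Figure D1:**
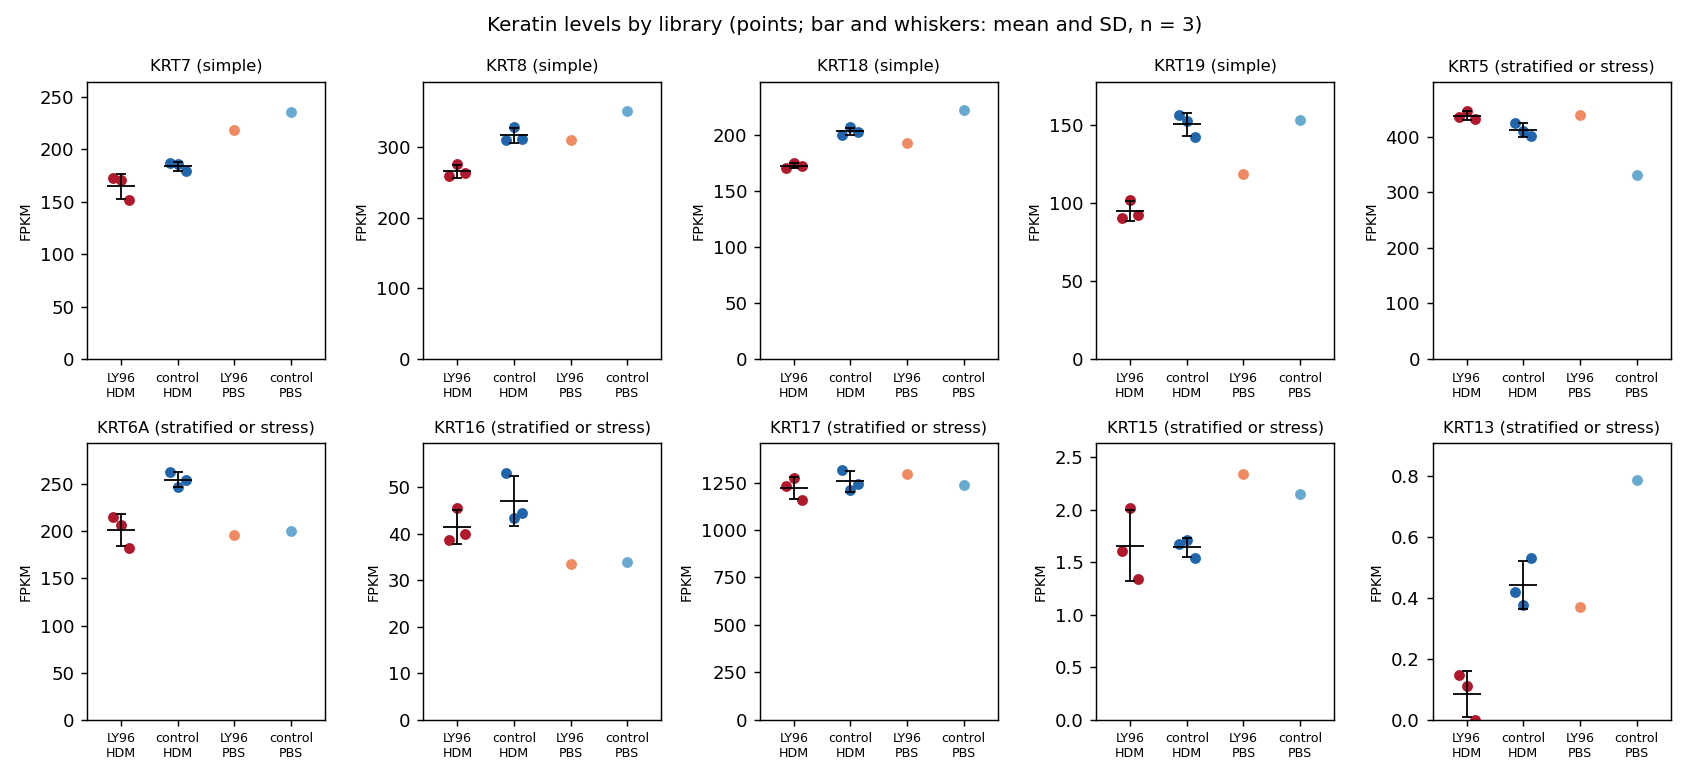
FPKM of each of the 10 keratins (y axis, from 0) in each library, with LY96 siRNA and control siRNA under HDM extract and then under PBS along the x axis; points are libraries, and bars with whiskers are the mean and SD of the 3 HDM libraries. KRT19 lies between 90.3 and 102 FPKM in the LY96 siRNA HDM libraries and between 142 and 156 in the control siRNA HDM libraries, while KRT17 overlaps between them.

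The first comparison asked whether LY96 siRNA altered keratin levels in HDM-exposed cells. With LY96 siRNA, 3 of the 4 simple keratins fell (KRT8, KRT18 and KRT19), and of the 5 tested stratified or stress keratins KRT6A fell and none rose. Across all genes 1966 of 12598, or 15.6%, were called in either direction at an adjusted p below 0.05 (limma, Benjamini-Hochberg), 842 up (6.68%) and 1124 down (8.92%). After median-ratio scaling that split was 1071 up and 878 down. The 4 simple keratins had a median log2 difference of -0.24 and the 5 others one of -0.04, against -0.02 over all genes tested.

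KRT19, the smallest type I keratin, showed the largest difference of the 9. It was at 90.3, 102 and 92.1 FPKM with LY96 siRNA, against 156, 152 and 142 FPKM with control siRNA. The groups did not overlap, and KRT19 fell by 0.66 on the log2(FPKM + 1) scale (SE 0.052, adjusted p = 0.000244), a mean 0.631 times that of control siRNA. The fall was called under all 12 alternative settings (log2 -0.71 to -0.59).

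KRT8 was at 259, 276 and 263 FPKM with LY96 siRNA and at 310, 329 and 312 FPKM with control siRNA. Its partner KRT18 was at 170.3, 175 and 172 FPKM with LY96 siRNA and at 200.3, 207 and 203 FPKM with control siRNA. Neither pair of groups overlapped, and both genes fell by a similar amount, KRT8 by 0.25 (SE 0.035, adjusted p = 0.00267) and KRT18 by 0.24 (SE 0.027, adjusted p = 0.00099) on the log2 scale. The ratio of KRT8 to KRT18 stayed within 1.52 to 1.58 in the LY96 siRNA HDM libraries and 1.54 to 1.59 in the control siRNA HDM libraries. The stretches that KRT8 and KRT18 share bear on this likeness, and their part was not tested.

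KRT7 was at 172, 170.3 and 151 FPKM with LY96 siRNA and at 186, 186 and 179 FPKM with control siRNA. The groups did not overlap, but the log2 difference of -0.16 (SE 0.049) missed the threshold (adjusted p = 0.0576). It passed in an additive model over all 8 libraries (0.0301) and without LY96 HDM replicate 1 (0.0495). The additive model estimates the siRNA difference over HDM and PBS libraries together, not under HDM alone.

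Among the stress keratins KRT6A stood at 215, 207 and 183 FPKM with LY96 siRNA, against 263, 247 and 254 FPKM with control siRNA. It fell by 0.34 on the log2 scale (SE 0.058, adjusted p = 0.00805), with no overlap between groups. KRT16, the type I keratin usually paired with KRT6A, was at 38.7, 45.5 and 40.02 FPKM with LY96 siRNA and at 53.1, 43.4 and 44.5 FPKM with control siRNA. These groups overlapped, and its log2 difference of -0.18 did not pass (SE 0.089, adjusted p = 0.230).

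KRT5, the basal type II keratin, was at 435, 447 and 432 FPKM with LY96 siRNA, against 425, 409 and 401 FPKM with control siRNA. All LY96 siRNA libraries lay above all control siRNA libraries, but by only 1.06-fold, and the log2 difference of 0.09 (SE 0.029) missed the threshold (adjusted p = 0.0716). It passed after median-ratio scaling (0.0303) and quantile normalization (0.0198). KRT17 was at 1233, 1276 and 1161 FPKM with LY96 siRNA and at 1318, 1209 and 1241 FPKM with control siRNA, a log2 difference of -0.04 (SE 0.042, adjusted p = 0.578). Quantile normalization alone gave it a call, at log2 -0.14 (adjusted p = 0.00695).

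The low keratins complete the set. KRT15 was at 1.61, 2.02 and 1.34 FPKM with LY96 siRNA and at 1.67, 1.71 and 1.54 FPKM with control siRNA, with overlapping groups (adjusted p = 0.997). KRT13 was too low to be tested, at 0.146, 0.110 and 0 FPKM with LY96 siRNA and at 0.420, 0.375 and 0.530 FPKM with control siRNA. With the low-value filter removed it entered the test and passed (log2 -0.41, SE 0.068, adjusted p = 0.0216), though at levels under 1 FPKM with unknown read depth. In all, 6 of the 9 tested keratins had HDM groups that did not overlap, 5 with LY96 siRNA below and 1 with it above. Of all tested genes 37.0% did not overlap, 21.8% with LY96 siRNA below and 15.2% with it above. In bulk RNA, fewer cells that express a keratin and less of its RNA per cell cannot be told apart.

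**Figure D2:**
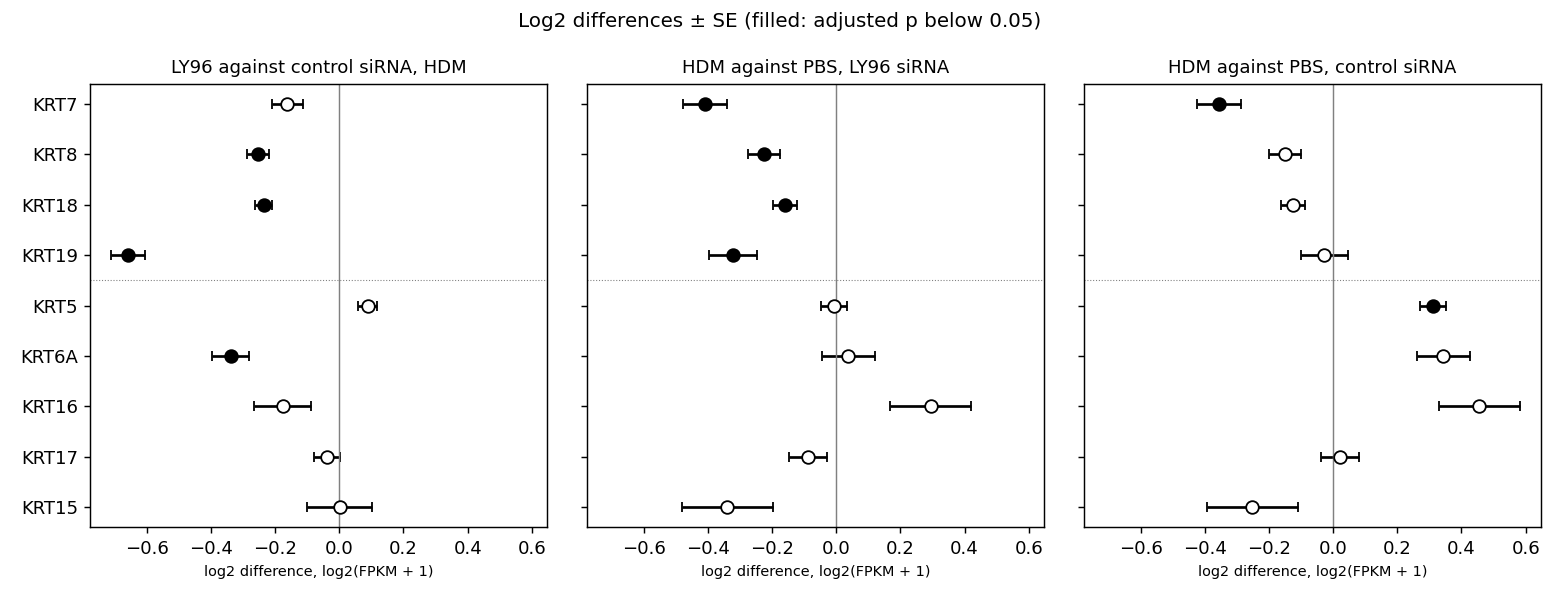
Log2 differences (x axis, log2(FPKM + 1) scale) of the 9 tested keratins with their SE, for LY96 against control siRNA under HDM, HDM against PBS with LY96 siRNA, and HDM against PBS with control siRNA; filled points have an adjusted p below 0.05, and the dotted line parts simple from other keratins. KRT19 has the lowest value in the first panel at -0.66, all 4 simple keratins are filled below 0 in the second, and KRT5 at 0.31 is filled above 0 in the third.

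A PBS library of each siRNA shows the same genes without HDM, and gives no test of its own. KRT19 was at 119 FPKM with LY96 siRNA and 153 FPKM with control siRNA. KRT8 was at 311 FPKM with LY96 siRNA and 352 FPKM with control siRNA, KRT18 at 193 FPKM with LY96 siRNA and 222 FPKM with control siRNA, and KRT7 at 218 FPKM with LY96 siRNA and 236 FPKM with control siRNA. All 4 simple keratins were thus lower in the LY96 siRNA PBS library. KRT5 was at 440 FPKM with LY96 siRNA and 332 FPKM with control siRNA, a ratio of 1.33. The stress keratins were closer between the PBS libraries, KRT6A at 196 FPKM with LY96 siRNA and 200.4 FPKM with control siRNA, KRT16 at 33.5 FPKM with LY96 siRNA and 33.9 FPKM with control siRNA, and KRT17 at 1298 FPKM with LY96 siRNA and 1236 FPKM with control siRNA. KRT15 was at 2.34 FPKM with LY96 siRNA and 2.14 FPKM with control siRNA, and KRT13 at 0.371 FPKM with LY96 siRNA and 0.785 FPKM with control siRNA.

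The second comparison asked how keratins responded to HDM extract. Averaged over both siRNAs, KRT7, KRT8 and KRT18 fell and KRT5 and KRT16 rose, so that 3 of 4 simple keratins were lower and 2 of 5 tested stratified or stress keratins higher. Over all genes 1054 of 12604, or 8.36%, were called in this comparison, 4.86% up and 3.50% down. The simple keratins had a median log2 difference of -0.18 and the others one of 0.15, against 0.01 over all genes tested.

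KRT7 changed most among the simple keratins. The LY96 siRNA HDM libraries listed above averaged 165 ± 11.6 FPKM (SD, n = 3), against 218 FPKM with PBS, and the control siRNA HDM libraries averaged 184 ± 4.18 FPKM (SD, n = 3), against 236 FPKM with PBS. Every HDM library lay below the PBS library of its siRNA, and over both siRNAs KRT7 fell by 0.38 (SE 0.049, adjusted p = 0.00169) on the log2 scale. KRT8 fell by 0.19 (SE 0.035, adjusted p = 0.0108) and KRT18 by 0.14 (SE 0.027, adjusted p = 0.0110), again with every HDM library below its PBS library. KRT19 differed by log2 -0.17 (SE 0.052) and did not pass (adjusted p = 0.0805). It was called under 1 of 11 alternatives, without LY96 HDM replicate 2 (log2 -0.20).

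KRT5 rose by log2 0.15 (SE 0.029, adjusted p = 0.0125). With LY96 siRNA it was at 438 ± 7.82 FPKM (SD, n = 3) under HDM against 440 FPKM under PBS, and with control siRNA at 412 ± 11.8 FPKM (SD, n = 3) under HDM against 332 FPKM under PBS. In an additive model over all 8 libraries the call was lost (adjusted p = 0.192). KRT16 rose by log2 0.37 (SE 0.089, adjusted p = 0.0486). All 6 HDM libraries lay above both PBS libraries, at 41.4 ± 3.61 FPKM with LY96 siRNA and 47.0 ± 5.29 FPKM with control siRNA (SD, n = 3 each), against 33.5 FPKM in the LY96 siRNA and 33.9 FPKM in the control siRNA PBS library. The KRT16 call held under 3 of 11 alternatives, with adjusted p-values from 0.0196 to 0.0969. KRT6A (log2 0.19, adjusted p = 0.0920), KRT17 (-0.03, adjusted p = 0.723) and KRT15 (-0.30, adjusted p = 0.119) did not pass. KRT6A was called under 1 of 11 alternatives, without LY96 HDM replicate 3 (log2 0.23), and KRT17 and KRT15 under none.

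Within LY96 siRNA all 4 simple keratins fell under HDM and none of the 5 others passed, where 4.90% of all tested genes were called, 2.91% up and 1.98% down. The log2 differences were -0.41 for KRT7 (SE 0.069, adjusted p = 0.0105), -0.32 for KRT19 (SE 0.074, adjusted p = 0.0439), -0.23 for KRT8 (SE 0.049, adjusted p = 0.0333) and -0.16 for KRT18 (SE 0.038, adjusted p = 0.0462). These calls were close to the threshold, and leaving out single HDM libraries left between 1 and 3 of the 4. There was 1 left when control HDM replicate 1 or LY96 HDM replicate 1 or 3 was omitted, 2 without control HDM replicate 2 or 3, and 3 without LY96 HDM replicate 2. Omitting a control HDM library left these 4 differences as they were, and changed only the spread used in the test and the set of genes tested. Without the low-value filter none was called, at adjusted p-values from 0.0576 for KRT7 to 0.139 for KRT19.

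Within control siRNA the simple keratin KRT7 fell (log2 -0.36, SE 0.069, adjusted p = 0.0341) and the basal keratin KRT5 rose (log2 0.31, SE 0.041, adjusted p = 0.00530), where 2.28% of all tested genes were called, 1.55% up and 0.738% down. The KRT5 call held under all 10 alternatives and the KRT7 call under 6, being lost without any 1 of the control HDM replicates and without the low-value filter. In this comparison, omitting a LY96 HDM library changed no keratin difference. It changed only the spread used in the test and the set of genes tested. KRT6A, at 255 ± 8.15 FPKM (SD, n = 3) under HDM against 200.4 FPKM under PBS, had a log2 difference of 0.34 (SE 0.082, adjusted p = 0.0812) and passed without LY96 HDM replicate 3 (0.0107). KRT19 was at 150 ± 7.33 FPKM (SD, n = 3) under HDM and 153 FPKM under PBS, a log2 difference of -0.03 (adjusted p = 0.897), and KRT16 (0.46, adjusted p = 0.141), KRT8 (-0.15, 0.178) and KRT18 (-0.13, 0.141) did not pass either.

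Whether the HDM response differed between siRNAs was tested as an interaction, in which the response under control siRNA is subtracted from the one under LY96 siRNA. No keratin of the 9 passed in limma, as fitted here or in the alternatives run, and over all genes 7 of 12604 did (0.0555%). At an unadjusted p below 0.05 there were 3 of the 9 keratins, against 956 of all 12604 genes (7.58%). All 9 estimates were below 0, that of KRT7 turning above 0 without LY96 HDM replicate 3 (0.0064), as were 49.4% of those over all genes. KRT5 had the smallest p, with a log2 interaction of -0.32 (SE 0.058, adjusted p = 0.124), followed by KRT19 (-0.29, adjusted p = 0.564) and KRT6A (-0.31, adjusted p = 0.601). The other simple keratins were at -0.08 for KRT8, -0.05 for KRT7 and -0.03 for KRT18, and KRT16 was at -0.16. All of these share the single PBS library of each siRNA. The fall of KRT19 within LY96 siRNA and the rise of KRT5 within control siRNA are thus not shown to differ between siRNAs.

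The balance of simple against stratified keratins moved with both siRNA and HDM. Simple keratins made up 26.4%, 26.8% and 27.2% of the summed FPKM of the 10 genes with LY96 siRNA and HDM, against 29.3%, 31.4% and 30.1% with control siRNA and HDM. The PBS libraries were at 29.9% with LY96 siRNA and 34.8% with control siRNA. The share was lowest in the LY96 siRNA HDM libraries and highest in the control siRNA PBS library, and no p is given for it because its genes were chosen. The sum of the simple keratins was 698 ± 22.8 FPKM with LY96 siRNA and HDM and 854 ± 19.3 FPKM with control siRNA and HDM (SD, n = 3 each), while the sum of the other 6 was 1906 ± 82.1 FPKM with LY96 siRNA and HDM and 1971 ± 78.7 FPKM with control siRNA and HDM (SD, n = 3 each).

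Ratios of single keratins moved unevenly. KRT5 over KRT8 was 1.65 ± 0.031 with LY96 siRNA and HDM and 1.30 ± 0.064 with control siRNA and HDM (SD, n = 3 each), against 1.41 in the LY96 siRNA and 0.943 in the control siRNA PBS library. KRT7 over KRT19 was 1.74 ± 0.146 with LY96 siRNA and HDM and 1.23 ± 0.034 with control siRNA and HDM (SD, n = 3 each), against 1.84 in the LY96 siRNA and 1.54 in the control siRNA PBS library. KRT8 over KRT18 was 1.54 ± 0.032 with LY96 siRNA and HDM and 1.56 ± 0.029 with control siRNA and HDM (SD, n = 3 each), against 1.61 in the LY96 siRNA and 1.58 in the control siRNA PBS library. Within the simple set, the KRT8 and KRT18 pair therefore kept its ratio within 1.52 to 1.61 in all libraries, while KRT19 over KRT18 was 0.549 ± 0.029 with LY96 siRNA and HDM and 0.739 ± 0.040 with control siRNA and HDM (SD, n = 3 each). KRT8 and KRT18 share annotated stretches, whose part in their steady ratio was not tested. Over 39 keratin genes, type II over type I keratins summed to a ratio of 0.635 ± 0.0070 with LY96 siRNA and HDM and 0.643 ± 0.016 with control siRNA and HDM (SD, n = 3 each), against 0.645 in the LY96 siRNA and 0.622 in the control siRNA PBS library.

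**Figure D3:**
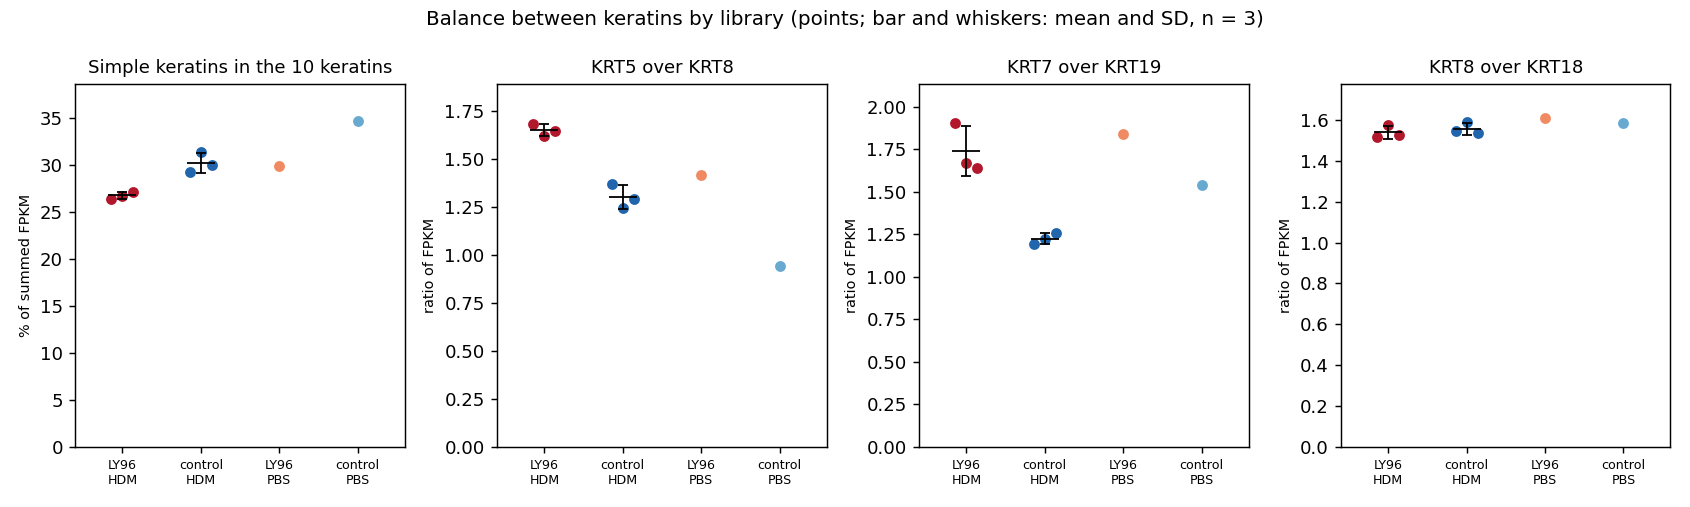
Share of the 4 simple keratins in the summed FPKM of the 10 keratins (percent) and 3 ratios of FPKM (y axes, from 0) by library, with LY96 siRNA and control siRNA under HDM and then under PBS along the x axis; points are libraries, and bars with whiskers are the mean and SD of the 3 HDM libraries. The simple share is 26.4% to 27.2% in LY96 siRNA HDM libraries and 29.3% to 31.4% in control siRNA HDM libraries, while KRT8 over KRT18 stays between 1.52 and 1.61 throughout.

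Of 30 other keratins, 10 reached the level tested, and with LY96 siRNA under HDM 7 fell and 1 rose (median log2 -0.67). Over all genes tested, 8.92% were called down and 6.68% up. Among the called genes at a mean level of 5 FPKM or more, the 4 largest changes were those of KRT4, KRT10, KRT81 and KRT23. KRT10, the type I keratin of the suprabasal epidermis, was at 83.4, 93.2 and 61.7 FPKM with LY96 siRNA, against 150, 132 and 133 FPKM with control siRNA (log2 -0.81, SE 0.16, adjusted p = 0.0340). Its usual partner KRT1 was at 25.7, 29.5 and 18.6 FPKM with LY96 siRNA, against 45.4, 37.6 and 40.2 FPKM with control siRNA, with groups that did not overlap and an adjusted p of 0.0571. KRT4, a keratin of non-cornified stratified epithelia, had a log2 difference of -0.87 (SE 0.20, adjusted p = 0.0468), KRT81, a hair keratin, -0.75 (SE 0.14, adjusted p = 0.0213) and KRT23 -0.72 (SE 0.11, adjusted p = 0.0115). The calls of KRT10, KRT4 and KRT81 were lost when any 1 control HDM library or LY96 HDM replicate 1 was omitted, with adjusted p-values from 0.0578 to 0.126. In each of these 5 genes the lowest value was in LY96 HDM replicate 3, which also had the highest ribosomal RNA share, and without that library KRT10 (log2 -0.64, adjusted p = 0.00300), KRT4 (-0.67, 0.0138) and KRT81 (-0.61, 0.00899) were still called. KRT4 also lost its call with a pseudocount of 0.1 (0.0520), after median-ratio scaling (0.0504) and after quantile normalization (0.0538).

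KRT1 above and the keratins named next fell outside the naming rule and were chosen after their values were seen. KRT14, the type I partner of KRT5, was the 1 keratin of the 10 that rose, at 164, 176 and 167 FPKM with LY96 siRNA against 149, 150 and 151 FPKM with control siRNA (log2 0.17, SE 0.033, adjusted p = 0.0102). KRT6B fell with LY96 siRNA like KRT6A, at 15.5, 16.7 and 13.8 FPKM with LY96 siRNA against 22.4, 22.0 and 22.3 FPKM with control siRNA (log2 -0.51, SE 0.061, adjusted p = 0.00132), while KRT6C, at 24.0 ± 3.85 FPKM with LY96 siRNA and 24.7 ± 1.42 FPKM with control siRNA (SD, n = 3 each), did not pass (log2 -0.05, adjusted p = 0.812). The coding sequences of the 3 KRT6 genes differ at few positions (the sequences above), so how the reads were divided among these genes bears on these values. Under HDM against PBS over both siRNAs, KRT6B rose (log2 0.31, adjusted p = 0.0148, called under 9 of 11 alternatives), KRT79 (-0.92, adjusted p = 0.0140) and KRT80 (-0.63, adjusted p = 0.000393) fell, and the other 7 tested keratins did not pass. All tested genes had 4.86% up and 3.5% down. Of those 7 keratins, KRT81 was called under 4 of 11 alternatives, KRT4 under 2, and KRT10, KRT23 and KRT6C under 1 each. KRT6B averaged 15.3 FPKM under HDM against 14.5 FPKM under PBS with LY96 siRNA, where the HDM libraries lay on both sides of PBS. With control siRNA it averaged 22.2 FPKM against 14.8 FPKM. None of these 10 keratins passed the interaction. The fall of KRT79 with LY96 siRNA under HDM (log2 -0.61, adjusted p = 0.0410) held under 7 of 12 alternatives and was lost when any 1 control HDM library was omitted, and that of KRT80 (log2 -0.35, adjusted p = 0.00793) held under all 12.

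**Figure D4:**
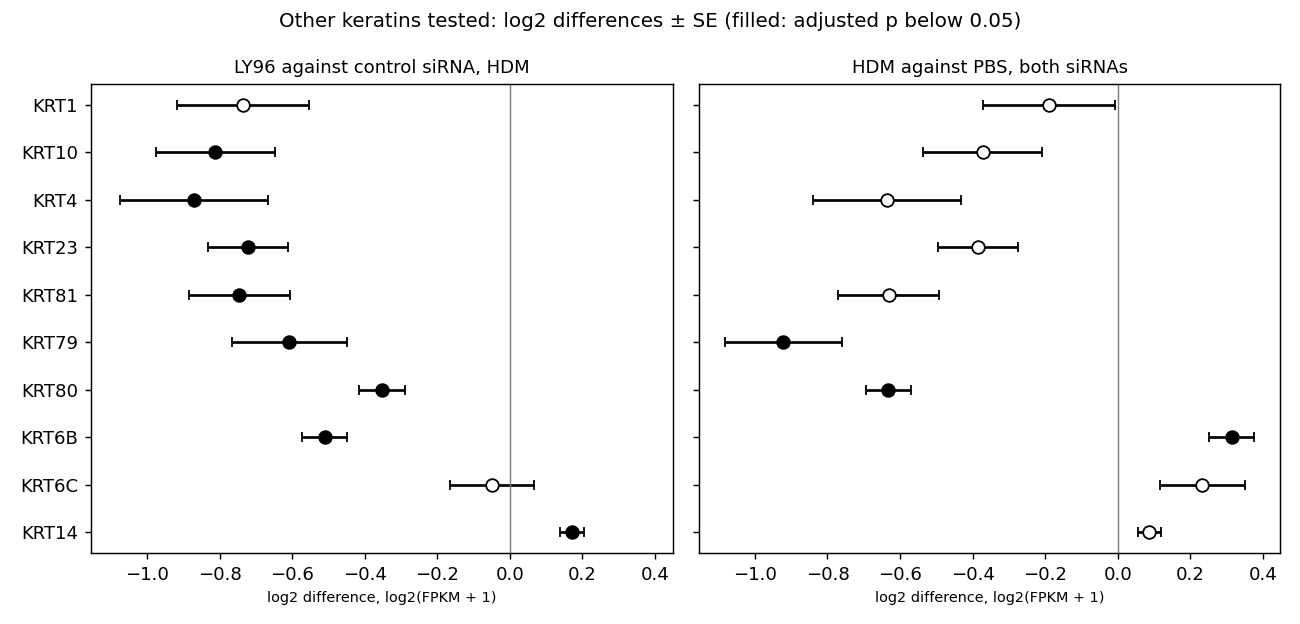
Log2 differences (x axis, log2(FPKM + 1) scale) with their SE of the 10 other keratins that were tested, for LY96 against control siRNA under HDM and for HDM against PBS over both siRNAs; filled points have an adjusted p below 0.05. KRT4, KRT10, KRT81, KRT23, KRT79, KRT6B and KRT80 are filled below 0 and KRT14 is filled above 0 in the first panel.

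Genes for the proteins that anchor keratin filaments moved both ways. Of 19 tested desmosome, hemidesmosome and plakin genes, 3 rose and 3 fell with LY96 siRNA under HDM (median log2 -0.07). Over all genes tested, 6.68% were called up and 8.92% down. DSC2, a desmosomal cadherin, fell to 5.58, 6.78 and 5.09 FPKM with LY96 siRNA, against 9.54, 8.41 and 8.60 FPKM with control siRNA (log2 -0.54, SE 0.090, adjusted p = 0.00639). EVPL, the envoplakin gene whose product links keratins to the cornified envelope, fell by 0.35 (SE 0.050, adjusted p = 0.00289), and COL17A1, a hemidesmosomal collagen on which basal keratins are anchored, rose by 0.23 (SE 0.039, adjusted p = 0.00600). PKP2, a desmosomal plaque gene, was among 3 of the 19 that fell with HDM over both siRNAs (log2 -0.31, SE 0.053, adjusted p = 0.00733), and none rose. For that comparison the shares of all tested genes were 4.86% up and 3.5% down. All 6 of the HDM libraries lay below the PBS library of their siRNA for PKP2.

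Of the 5 tested non-keratin intermediate filament genes, 2 rose and 1 fell with LY96 siRNA under HDM, while 2 fell with HDM over both siRNAs. All tested genes had 6.68% up and 8.92% down with LY96 siRNA, and 4.86% up and 3.5% down with HDM. LMNA, the gene for the nuclear lamins A and C, fell in both comparisons, by 0.16 (SE 0.031, adjusted p = 0.0120) with LY96 siRNA and by 0.20 (SE 0.031, adjusted p = 0.00504) with HDM. LMNB1, a B-type nuclear lamin gene, rose by 0.19 with LY96 siRNA (SE 0.029, adjusted p = 0.00428). VIM, the mesenchymal filament gene vimentin that these cells express beside keratins, was at 338 ± 6.63 FPKM with LY96 siRNA and HDM and 317 ± 4.66 FPKM with control siRNA and HDM (SD, n = 3 each), against 351 in the LY96 siRNA and 356 FPKM in the control siRNA PBS library. Its rise with LY96 siRNA (log2 0.09, adjusted p = 0.0466) and its fall with HDM (log2 -0.11, adjusted p = 0.0387) were close to the threshold, and the rise held under 2 of 12 alternatives and the fall under 3 of 11.

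Among 23 tested regulators of keratin genes, 3 rose and 3 fell with LY96 siRNA under HDM, and 3 rose and 1 fell with HDM over both siRNAs. All tested genes had 6.68% up and 8.92% down with LY96 siRNA, and 4.86% up and 3.5% down with HDM. ELF3, an epithelial ETS factor, rose with HDM (log2 1.23, SE 0.058, adjusted p = 3.37e-06), to 13.1, 14.9 and 15.0 FPKM with LY96 siRNA against 5.05 FPKM under PBS, and to 11.2 ± 0.357 FPKM (SD, n = 3) with control siRNA against 4.61 FPKM under PBS. It was also higher with LY96 siRNA under HDM (log2 0.33, SE 0.056, adjusted p = 0.00647). CEBPB, a stress-responsive transcription factor, rose in both comparisons, by 0.59 (SE 0.049, adjusted p = 0.000254) with LY96 siRNA and by 0.56 (SE 0.049, adjusted p = 0.000186) with HDM. With LY96 siRNA it averaged 66.5 FPKM under HDM against 36.7 FPKM under PBS, and with control siRNA 43.75 against 35.8 FPKM. None of the 23 regulators passed the interaction. TP63, whose product maintains basal cells and drives KRT5 and KRT14, rose by 0.38 (SE 0.038, adjusted p = 0.000440) with HDM but differed by -0.08 with LY96 siRNA (adjusted p = 0.189). GRHL1, a grainyhead factor of desmosomal genes, fell by 0.41 (SE 0.069, adjusted p = 0.00623) with LY96 siRNA under HDM.

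Of 15 tested genes listed for keratin-binding, filament-organising or keratinocyte-associated proteins, 6 fell and none rose with LY96 siRNA under HDM (median log2 -0.08). With HDM over both siRNAs 3 fell and none rose. All tested genes had 6.68% up and 8.92% down with LY96 siRNA, and 4.86% up and 3.5% down with HDM. The HDM falls of HSPA8 (log2 -0.19, adjusted p = 0.0226) and HSP90AA1 (log2 -0.12, adjusted p = 0.0361) held under 8 of 11 alternatives for HSPA8 and 5 of 11 for HSP90AA1. The heat shock cognate gene HSPA8 fell by 0.41 (SE 0.042, adjusted p = 0.000703) and the chaperone gene HSP90AA1 by 0.30 (SE 0.030, adjusted p = 0.000533) with LY96 siRNA. FAM83H, which recruits a kinase to keratin filaments, fell by 0.19 (SE 0.042, adjusted p = 0.0164). KRTCAP2 fell by 0.14 (SE 0.030, adjusted p = 0.0150). KRTCAP2 is counted among the 6, but its name refers to keratinocytes and does not make it a keratin-binding protein. Omitting control HDM replicate 2 ended the FAM83H call (adjusted p = 0.0630), and omitting control HDM replicate 2 (0.0638) or 3 (0.0505) ended the KRTCAP2 call.

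General epithelial markers moved both ways, with more calls down than up. Of 10 such markers, 5 fell and 2 rose with LY96 siRNA under HDM (median log2 -0.20), and 4 fell and 1 rose with HDM over both siRNAs (median log2 -0.15). All tested genes had 6.68% up and 8.92% down with LY96 siRNA, and 4.86% up and 3.5% down with HDM. The tight junction gene CLDN4 (log2 -0.74, adjusted p = 0.00307) and MAL2 (-0.45, adjusted p = 0.000543) fell with LY96 siRNA, while the E-cadherin gene CDH1 (0.49, adjusted p = 0.000814) rose. ELF3, described above, was the other marker that rose, and 3 markers had no call. CLDN4, MAL2 and CDH1 were named outside the naming rule. Summed, the 10 markers were at 227 to 260 FPKM with LY96 siRNA and HDM and 277 to 290 FPKM with control siRNA and HDM, against 315 FPKM in the LY96 siRNA and 303 FPKM in the control siRNA PBS library. Basal airway markers had 2 of 8 tested up and none down with LY96 siRNA under HDM, and summed to 193 to 204 FPKM with LY96 siRNA and HDM, 177 to 181 FPKM with control siRNA and HDM, against 203 FPKM in the LY96 siRNA and 173 FPKM in the control siRNA PBS library. These marker genes were chosen with earlier results of these data known, and their part in the keratin differences was not tested.

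For the 3 simple keratins that fell with LY96 siRNA under HDM, the genes with the most similar profile were found among 8897 genes averaging 5 FPKM or more, by the root-mean-square difference of centred log2(FPKM + 1) over the 8 libraries. Nearest to KRT8 were BCL2L1 (0.027), ADGRA3 (0.028) and NR2F2 (0.029), beside a standard deviation of 0.158 for KRT8 itself. Nearest to KRT18 were AMOTL2 (0.022), C4orf3 (0.023) and PAAF1 (0.024), beside 0.140 for KRT18. For KRT19 they were DSC2 (0.104), BMP4 (0.116) and KITLG (0.119), beside 0.336. The wider profile of KRT19 was matched less closely than those of KRT8 and KRT18, and the ranking rests on libraries that share their PBS controls.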

How the data were processed

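RNA of 8 BEAS-2B libraries was sequenced. The submitters' processing notes name HISAT2 2.2.0 and hg38. Not given in the sources used here are the quantifier, its annotation and its use of strand. The values the authors deposited carry no unit and were taken to be FPKM, since they are fractional and their sums vary between libraries. Ratios of low values between libraries gather at no step (at most 2.23% in any bin), so whole reads and depth could not be recovered. Each table lists 26485 genes.

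Groups follow the sample titles. limma 3.58.1 in R 4.3.3 (trend and robust moderation) was run on log2(FPKM + 1) for genes averaging 1 FPKM or more in the fitted libraries. Tests were two-sided, with Benjamini-Hochberg adjustment over every tested gene and a threshold of 0.05. LY96 against control siRNA used the 6 HDM libraries, while the HDM effects and the interaction used a model of 4 group means over 8 libraries. Both models had 4 residual degrees of freedom. The pseudocount shrinks log2 differences of low genes. The code was tested on simulated data.

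The members and gene lists were chosen with earlier results of these data known. Named genes were the 10 members and, of each list, up to 4 genes with the largest log2 difference among those called and averaging 5 FPKM or more. Some other keratins and the epithelial markers CLDN4, MAL2 and CDH1 were named outside this rule, as stated where they appear. Coding sequences were aligned with Biopython 1.88. The alternatives were a pseudocount of 0.1, no low-value filter, median-ratio scaling, quantile normalization, an additive model, a replicate block and omission of each HDM library. The additive model takes the same siRNA difference with HDM and with PBS, and the same HDM difference with both siRNAs. Its siRNA difference is therefore not that of the HDM libraries alone.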

Additional observations from a re-analysis of the deposited data

Results flagged for a closer look

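COL17A1, the hemidesmosomal collagen gene, stood out because its HDM response went opposite ways by siRNA, with every LY96 siRNA HDM library below its PBS library (23.6, 22.6 and 24.2 FPKM against 24.5 FPKM) and every control siRNA HDM library above its own (20.0, 20.1 and 19.2 FPKM against 15.9 FPKM). The difference between the responses was log2 -0.36 (SE 0.079, adjusted p = 0.243 for the interaction in limma), so it did not pass. FAM83H, the keratin-associated gene, did likewise, at 24.0, 23.7 and 22.0 FPKM under HDM against 24.3 FPKM under PBS with LY96 siRNA, and at 26.7, 27.2 and 26.1 FPKM under HDM against 25.1 FPKM under PBS with control siRNA, a difference of log2 -0.15 (adjusted p = 0.715). Each siRNA had 1 PBS library.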

How the results depend on the processing

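The falls of KRT8, KRT18, KRT19 and KRT6A with LY96 siRNA under HDM, and of KRT7, KRT8 and KRT18 with HDM over both siRNAs, kept their direction and their call under every alternative run. Single PBS libraries, unknown depth and 4 residual degrees of freedom limit the HDM results. Leaving out 1 HDM library gave 1119 to 1369 genes called for LY96 siRNA under HDM (1966 with all libraries; 1119 without control HDM replicate 2), 187 to 329 for HDM with control siRNA (288 with all; 187 without control HDM replicate 2) and 0 to 33 for the interaction (7 with all). Without the low-value filter the interaction had 20 calls, and after quantile normalization 11. Keratin members called within LY96 siRNA (4) were 1 to 3 when an HDM library was left out and 0 without the filter, and those within control siRNA (2) were 1 to 3 and 1. Directions turned for small differences that were not called. For LY96 siRNA under HDM, KRT15 was at log2 -0.0044 with a pseudocount of 0.1 and at -0.095 to 0.087 with an HDM library left out, and KRT6C was at 0.0074 in an additive model and at -0.13 to 0.085. For HDM over both siRNAs FAM83H was at -0.0011 after median-ratio scaling, -0.0056 after quantile normalization and -0.0014 to 0.029 with a library left out. Within LY96 siRNA, such omissions gave -0.021 to 0.0036 for KRT5 and -0.011 to 0.11 for KRT6A. Within control siRNA they gave -0.057 to 0.0112 for KRT19, which was at 0.0114 after quantile normalization, and -0.014 to 0.049 for KRT17, and the KRT7 interaction was at -0.087 to 0.0064. The labels do not say whether replicate numbers pair the libraries, and the values showed little sign of it. Deviations of same-numbered LY96 and control siRNA HDM libraries correlated at 0.049, -0.017 and -0.016 across 12598 genes, and LY96 HDM replicate 1 alone correlated best with its own number. These correlations cannot show how the libraries were prepared. With the replicate number as a block 1635 genes were called (716 up, 919 down) with 5 members, KRT7 added (adjusted p = 0.0299), while KRT4 (0.0599) and KRT10 (0.0502) were not called.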
